A study of Mus musculus with 2 samples.

Results

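The 10 transcription factor genes Batf3, Id2, Nfil3, Zbtb46, Bcl6, Zeb2, Cebpb, Spib, Bcl11a and Tcf4, regulators of the conventional dendritic cell (cDC) lineages in mice, were followed through single-cell RNA libraries of mouse lung. They were taken by symbol, each symbol matched 1 row of both matrices, and together they are 10 of 31053 features. The cDC1 sort held cells sorted for XCR1, a chemokine receptor, and the cDC2 sort held cells sorted for CD172a, the product of Sirpa, which macrophages and monocytes also carry. Both came from untreated lungs of C57BL/6 mice of 8 to 10 weeks, in steady state, after release of the cells with dispase. Each sort was sequenced as 1 library, so the groups below are called the cDC1 sort and the cDC2 sort. The sources used here do not give the number of mice behind either. There was no replicate, and the effect of the sort cannot be told apart from that of the library.

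The cells kept after filters numbered 2574 in the cDC1 sort and 2835 in the cDC2 sort, with 35071861 and 38613693 unique molecular identifiers (UMIs, each counting 1 captured transcript). The median cell carried 12866 UMIs in the cDC1 sort and 12655 in the cDC2 sort, and 6 barcode sequences occurred in both deposited libraries, 5 of them among the kept cells of both. Levels are CPM, the UMIs of a gene in a group of cells scaled to a common total of all UMIs of those cells. The intervals beside levels and ratios have a 95% level and cover counting error in these libraries only. A gene was measured in a comparison at 10 CPM or more in at least 1 of its groups, and a ratio of 2-fold or more was called by that rule of size, which is not a test.

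Cells were assigned to states by marker genes that include none of the 10 factors. The cDC1 sort held 2145 resting cDC1-like cells, 229 cycling cells and 101 mature cells, the last defined by Fscn1, Ccr7 and other genes of DCs that are ready to migrate to lymph nodes. The cDC2 sort held 1921 resting cDC2-like cells, 276 cycling cells, 77 mature cells and 102 cells marked by Cd7 and Plac8. Gates for cells other than DCs took 35 cells of the cDC1 sort and 261 cells of the cDC2 sort, of which 142 were macrophage-like, 38 B cell-like, 36 nonclassical monocyte-like and 29 neutrophil-like. These gates were applied whatever DC markers a cell carried. The 12 cDC1 markers summed to 3575 CPM in resting cDC1-like cells and 236 CPM in resting cDC2-like cells, and the 12 cDC2 markers to 84.6 CPM in resting cDC1-like cells and 4014 CPM in resting cDC2-like cells. These sums describe the gates, since the same genes chose the cells.

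Conventional DCs take up antigen and present it to T cells; cDC1 excel at presenting antigen from dying cells to CD8 T cells, and cDC2 at priming helper T cells. In mouse progenitors NFIL3 lowers Zeb2, ZEB2 represses Id2, and ID2 binds and blocks E proteins such as TCF4, the factor that drives plasmacytoid DCs. Once a progenitor has turned to the cDC1 lineage, BATF3 keeps the cDC1 factor gene Irf8 switched on, while ZEB2 and C/EBP-beta are better known from the myeloid and cDC2 side.

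The promoters of Zeb2, Cebpb and Spib are shown because these 3 members differed most between the libraries. The sequences are the 250 bases before a transcription start, 5′ to 3′ on the strand of the gene, from RefSeq on GRCm38.p6; for Zeb2, which has several listed starts, the most upstream one is given. Capitals mark a match to the C/EBP motif TTGCNNAA on either strand, which 9.56% of 32851 mouse promoters of this length held. The Zeb2 window lies at chr2:45117443-45117692 on the minus strand, the Cebpb window at chr2:167688665-167688914 on the plus strand and the Spib window at chr7:44532072-44532321 on the minus strand.
Zeb2: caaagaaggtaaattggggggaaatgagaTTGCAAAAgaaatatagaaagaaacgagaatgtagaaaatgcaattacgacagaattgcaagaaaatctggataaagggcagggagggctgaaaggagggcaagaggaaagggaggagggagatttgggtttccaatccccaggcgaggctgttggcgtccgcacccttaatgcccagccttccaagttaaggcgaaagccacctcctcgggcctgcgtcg
Cebpb: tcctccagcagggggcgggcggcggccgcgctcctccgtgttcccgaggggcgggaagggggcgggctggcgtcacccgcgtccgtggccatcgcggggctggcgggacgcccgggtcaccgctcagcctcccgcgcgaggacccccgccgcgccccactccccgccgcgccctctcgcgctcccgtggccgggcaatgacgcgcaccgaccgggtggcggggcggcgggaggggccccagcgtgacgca
Spib: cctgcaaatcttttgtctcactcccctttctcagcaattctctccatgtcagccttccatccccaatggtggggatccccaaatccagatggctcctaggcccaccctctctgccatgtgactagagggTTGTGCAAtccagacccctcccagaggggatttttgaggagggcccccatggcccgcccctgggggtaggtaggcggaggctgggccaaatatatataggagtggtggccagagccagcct
The match began 221 bases before the start in Zeb2 and 121 bases before it in Spib, and the Cebpb window held none. The E-box CACCTG, which ZEB proteins bind, the AP-1 motif TGANTCA and the PU.1 and SPIB motif GAGGAAGT were searched the same way, on both strands. They occur in 17.2%, 6.75% and 2.44% of promoters and had no match in these 3 windows. Zeb2 has 4 listed starts, and the window before the most downstream one held 2 AP-1 matches. The C/EBP match of Zeb2 lay in the most upstream window only. A match describes the letters and is no evidence of binding. In the annotation of the mm10 genome, exons of Zeb2, Cebpb, Bcl11a and Bcl6 overlap exons of a gene on the opposite strand (Zeb2os and Gm27761, Tmem189, 4930538E20Rik and Gm37419), and whether counting used the strand is not stated, so part of their UMIs could belong to those genes.

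Between the whole libraries, the members split into 5 that stood at least 2-fold higher in the cDC2 sort and 5 that stood within 2-fold. Higher in the cDC2 sort were Zeb2, Cebpb, Spib, Bcl11a and Tcf4, in a table where 7.79% of 6610 measured genes were 2-fold higher there. None of the 10 members was 2-fold higher in the cDC1 sort, where 5.51% of the measured genes were. The median log2 ratio, cDC1 sort over cDC2 sort, was -0.92 over the 10 members and -0.05 over all measured genes.

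The members that stood within 2-fold come first. Batf3 (chr1:191097847-191108945, plus strand), whose product partners with JUN proteins and IRF8, stood at 69.2 CPM in the cDC1 sort and 51.0 CPM in the cDC2 sort, a ratio of 1.36 (1.28 to 1.44). Id2 (chr12:25093799-25097140, minus strand), the inhibitor of E proteins, stood at 1274 CPM and 737 CPM in the same order. Both therefore had transcripts in each sort, and Batf3, without which mice lack most cDC1, differed by less than Id2 did, at 1.73-fold (1.70 to 1.75). Nfil3 (chr13:52967209-52981073, minus strand), the repressor that opens the cDC1 path, stood at 40.3 CPM in the cDC1 sort and 61.5 CPM in the cDC2 sort, 1.53-fold higher in the cDC2 sort (1.43 to 1.63). Bcl6 (chr16:23965052-23988852, minus strand), a zinc finger repressor, stood at 50.04 CPM in the cDC1 sort and 29.9 CPM in the cDC2 sort, a ratio of 1.67 (1.55 to 1.80). Zbtb46 (chr2:181387762-181459426, minus strand), a factor gene used in mice to tell cDCs from other myeloid cells, stood at 44.7 CPM in the cDC1 sort and 63.3 CPM in the cDC2 sort, 1.42-fold higher in the cDC2 sort (1.33 to 1.51).

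The remaining members were each at least 2-fold higher in the cDC2 sort. Zeb2 (chr2:44983632-45117395, minus strand), a zinc finger E-box repressor, stood at 13.8 CPM in the cDC1 sort and 310.5 CPM in the cDC2 sort. Cebpb (chr2:167688915-167690418, plus strand), a leucine zipper factor of myeloid cells, stood at 15.6 CPM in the cDC1 sort and 197 CPM in the cDC2 sort. Spib (chr7:44525993-44532071, minus strand), an ETS factor of B cells and plasmacytoid DCs, rested on 36 UMIs (1.03 CPM) in the cDC1 sort and 461 UMIs (11.9 CPM) in the cDC2 sort. These 3 had the largest differences of the list. Bcl11a (chr11:24078056-24174123, plus strand), a zinc finger factor that plasmacytoid DCs and B cells need, stood at 17.5 CPM in the cDC1 sort and 45.7 CPM in the cDC2 sort, 2.61-fold higher in the cDC2 sort (2.38 to 2.86). Tcf4, the E protein gene, stood at 75.4 CPM in the cDC1 sort and 177 CPM in the cDC2 sort, 2.35-fold higher in the cDC2 sort (2.24 to 2.46).

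Between gated resting cells the Zeb2, Cebpb and Spib differences were wider than between the whole libraries, and the other 7 stayed near their library values. Zeb2 had 48 UMIs (1.73 CPM) in 2145 resting cDC1-like cells and 7087 UMIs (283 CPM) in 1921 resting cDC2-like cells, so it was 163-fold higher in the cDC2-like cells (123 to 222). Cebpb stood at 2.99 CPM in resting cDC1-like cells and 91.4 CPM in resting cDC2-like cells, 30.5-fold higher in the cDC2-like cells (24.5 to 38.5). Both genes were thus close to undetected in resting cDC1-like cells, and only 48 of the 485 Zeb2 UMIs and 83 of the 548 Cebpb UMIs of the cDC1 sort lay in those cells. Spib had 7 UMIs (0.253 CPM) in resting cDC1-like cells and 227 UMIs (9.05 CPM) in resting cDC2-like cells, 35.9-fold higher in the cDC2-like cells (17.1 to 90.2), and stayed under the 10 CPM needed for a call.

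Bcl11a stood at 16.6 CPM in resting cDC1-like cells and 41.6 CPM in resting cDC2-like cells, 2.5-fold higher in the cDC2-like cells (2.24 to 2.80). Tcf4 stood at 71.1 CPM in resting cDC1-like cells and 173 CPM in resting cDC2-like cells, 2.43-fold higher in the cDC2-like cells (2.30 to 2.56). Batf3 at 66.3 and 45.2 CPM, Id2 at 1301 and 768 CPM and Bcl6 at 50.6 and 29.5 CPM, resting cDC1-like cells before resting cDC2-like cells, were 1.47-fold, 1.69-fold and 1.71-fold higher in the cDC1-like cells. Nfil3 at 39.4 and 61.0 CPM and Zbtb46 at 44.9 and 67.8 CPM, in the same order of cells, were 1.55-fold and 1.51-fold higher in the cDC2-like cells. Of the 9 members measured in this comparison, 4 were 2-fold or more higher in the cDC2-like cells and none in the cDC1-like cells, against 8.46% and 6.87% of 6362 measured genes.

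Each sort also held a few resting cells with the markers of the other lineage, which allowed the same ratios to be read inside 1 library. In the cDC1 sort, Zeb2 stood at 1.73 CPM in cDC1-like cells and 253 CPM in 32 cDC2-like cells, and Cebpb at 2.99 CPM in cDC1-like cells and 116 CPM in cDC2-like cells. In the cDC2 sort, Zeb2 stood at 13.5 CPM (6 UMIs) in 35 cDC1-like cells and 283 CPM in cDC2-like cells, and Cebpb at 9.03 CPM (4 UMIs) in cDC1-like cells and 91.4 CPM in cDC2-like cells. The Zeb2 and Cebpb differences were therefore at least 2-fold within both libraries, with the Zeb2 ratio at 146-fold (104 to 208) within the cDC1 sort and 20.9-fold (9.58 to 56.9) within the cDC2 sort, higher in the cDC2-like cells each time. Tcf4 stood at 71.1 CPM in cDC1-like cells and 141 CPM in cDC2-like cells of the cDC1 sort, and at 61.0 CPM in cDC1-like cells and 173 CPM in cDC2-like cells of the cDC2 sort.

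Bcl11a, Batf3 and Zbtb46 varied more between these checks, in which the cells also differed in heat shock transcripts. The 3 heat shock genes summed to 1005 CPM in cDC1-like cells and 108 CPM in cDC2-like cells of the cDC1 sort, and to 1770 CPM in cDC1-like cells and 274 CPM in cDC2-like cells of the cDC2 sort, and their part in these ratios was not tested. Bcl11a stood at 16.6 CPM in cDC1-like cells and 37.3 CPM in cDC2-like cells of the cDC1 sort, but at 36.1 CPM (16 UMIs) in cDC1-like cells and 41.6 CPM in cDC2-like cells of the cDC2 sort, where the interval of the ratio included 1. Batf3 stood at 66.3 CPM in cDC1-like cells and 62.8 CPM in cDC2-like cells of the cDC1 sort, with a ratio of 1.06 (0.745 to 1.55), and at 90.3 CPM in cDC1-like cells and 45.2 CPM in cDC2-like cells of the cDC2 sort, just under 2-fold. Zbtb46 stood at 44.9 CPM in cDC1-like cells and 72.6 CPM in cDC2-like cells of the cDC1 sort, and at 27.1 CPM (12 UMIs) in cDC1-like cells and 67.8 CPM in cDC2-like cells of the cDC2 sort. Of 9 measured members, 3 were 2-fold or more higher in cDC2-like cells within the cDC1 sort and 4 within the cDC2 sort, where 11.9% and 11.1% of measured genes were, and none was 2-fold higher in cDC1-like cells, where 14.4% and 17.4% of measured genes were.

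**Figure D1:**
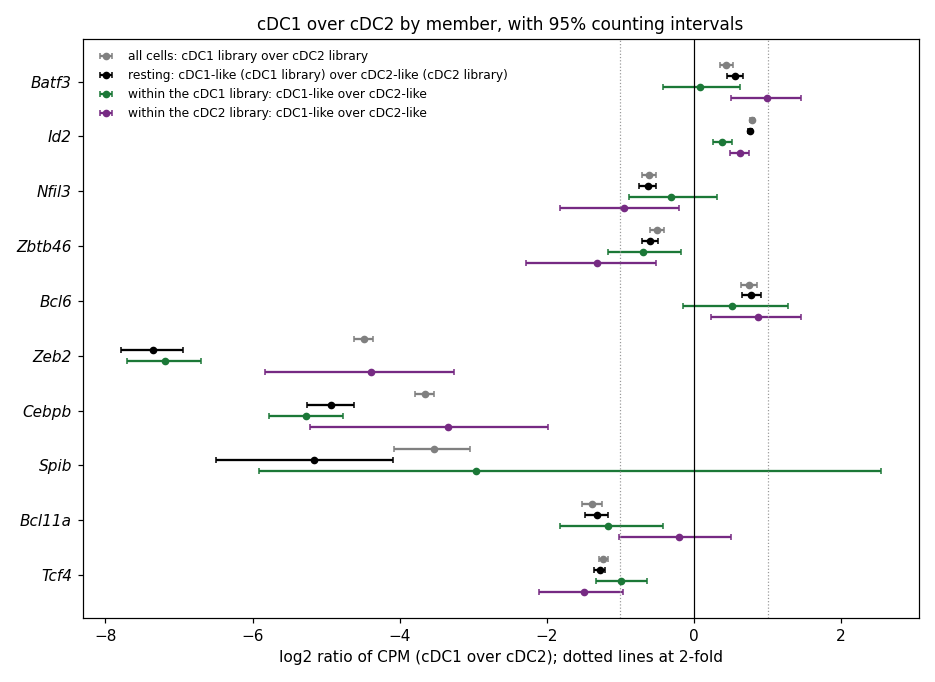
Log2 ratio of CPM, cDC1 over cDC2, for each gene between whole libraries, between gated resting cells of the 2 sorts, and between cDC1-like and cDC2-like resting cells inside each library, with 95% counting intervals as bars and dotted lines at 2-fold. Zeb2 and Cebpb lie far to the left in all 4 comparisons, while Id2 and Bcl6 lie right of 0 and within 2-fold, with the Bcl6 interval within the cDC1 library crossing 0; the Spib ratio within the cDC2 library is not drawn because its cDC1-like cells had no UMI.

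Shares of cells with a UMI were compared after thinning every cell to 5000 UMIs, which left out 71 cells of the cDC1 sort and 135 cells of the cDC2 sort. A Zeb2 UMI was found in 0.904% of resting cDC1-like cells (0.545 to 1.41%) and 61.4% of resting cDC2-like cells (59.2 to 63.6%). For Cebpb the shares were 1.86% of resting cDC1-like cells (1.32 to 2.53%) and 19.99% of resting cDC2-like cells (18.2 to 21.9%). Zeb2 was thus found across most resting cDC2-like cells at this depth and Cebpb in a minority of them. Over all cells, cDC1 sort before cDC2 sort, the thinned shares were 95.8% and 79.0% for Id2, 27.6% and 19.3% for Batf3, and 16.6% and 23.3% for Nfil3. They were 19.8% and 27.5% for Zbtb46, 21.4% and 13.7% for Bcl6, 7.11% and 17.4% for Bcl11a, and 29.2% and 46.7% for Tcf4. Each of these shares followed the order of the CPM of its gene.

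Without thinning, a UMI was found, cDC1 sort before cDC2 sort, in 98.7% and 87.5% of cells for Id2, 52.2% and 39.0% for Batf3, 32.9% and 44.1% for Nfil3, 40.8% and 50.5% for Zbtb46, and 43.2% and 29.2% for Bcl6. The unthinned shares were 5.05% and 83.1% for Zeb2, 5.44% and 38.5% for Cebpb, 1.09% and 11% for Spib, 16.3% and 33.7% for Bcl11a, and 53.3% and 70.7% for Tcf4. Free RNA in the droplets can add UMIs to cells that do not express a gene, so shares were also read in neutrophil-like cells of the cDC2 sort, thinned to 2000 UMIs because their median before thinning was 2939 UMIs. A Zbtb46 UMI was found in 0 of 26 of these cells (exact upper bound 13.2%), against 13.1% of resting cDC2-like cells, whose median before thinning was 12527 UMIs. A Tcf4 UMI was found in 3.85% of the neutrophil-like cells and 27.1% of resting cDC2-like cells, and an Id2 UMI in 15.4% of the neutrophil-like cells and 63.6% of resting cDC2-like cells. The Zbtb46 share and the Batf3 share of 9.43% in resting cDC2-like cells cannot be told apart from what 0 of 26 neutrophil-like cells allows, which is up to 11.5% by the limit of 3 counts and 13.2% by the exact interval. In the 38 B cell-like cells, with a median of 3745 UMIs before thinning, a Zbtb46 UMI was found in 0 cells. Its exact upper bound there, 9.25%, lay under the share in resting cDC2-like cells (11.7 to 14.7%). A Batf3 UMI was found in 2.63% of the B cell-like cells (0.0666 to 13.8%), an interval that includes 9.43%. For Cebpb the shares were 26.3% of B cell-like cells (13.4 to 43.1%), 100% of neutrophil-like cells and 12.3% of resting cDC2-like cells (10.9 to 13.9%). For Zeb2 they were 23.7% (11.4 to 40.2%), 42.3% and 37.7% (35.6 to 39.9%) in the same order. Both shares in resting cDC2-like cells lay under those in neutrophil-like cells. The part of free RNA in the Cebpb and Zeb2 shares and levels was not tested.

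The members also differed in which cells carried their UMIs. In the cDC2 sort the gates for cells other than DCs held 9.21% of the cells but 58.9% of the Cebpb UMIs, 20.1% of the Zeb2 UMIs and 3.89% of the Zbtb46 UMIs. Batf3 with 15.03% and Nfil3 with 15.4% of their UMIs in these gates lay between. Cebpb was the most concentrated of the 10 in that library after Spib, with 58.8% of its UMIs in the 5% of cells that held most of them, against 63.1% for Spib and 19.7% for Id2. In the cDC1 sort the same gates held 1.36% of the cells, 52.0% of the Cebpb UMIs and 32.6% of the Zeb2 UMIs. The 5% of cells richest in Zeb2 held 99.8% of its UMIs there, and mature cells held 47.2% of the 36 Spib UMIs. The share in the richest 5% of cells also rises as fewer cells carry any UMI of a gene. It thus follows largely from sparseness for Zeb2 in the cDC1 sort, and in part for Spib in the cDC2 sort.

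**Figure D2:**
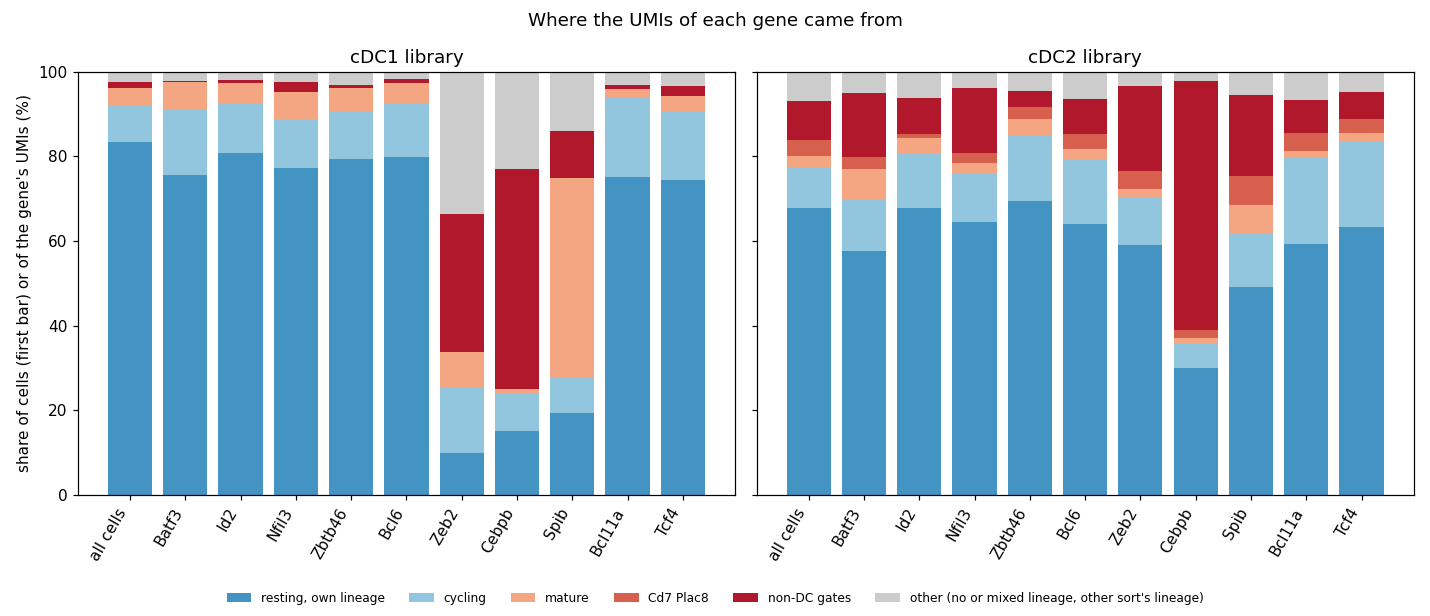
Share of cells (first bar of each panel) and of the UMIs of each gene by cell state, in percent, in the cDC1 library (left) and the cDC2 library (right). The gates for cells other than DCs take 58.9% of the Cebpb UMIs of the cDC2 library from 9.21% of its cells, and in the cDC1 library Zeb2, Cebpb and Spib depart from the cell shares while the other 7 genes stay near them.

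All mature cells of a sort, most of which had no lineage call, were set against the resting cells of its own lineage; mature cells with lineage markers are given apart afterwards. Spib was at least 2-fold higher in mature cells of both sorts, Batf3 in those of the cDC2 sort and Zeb2 in those of the cDC1 sort, while Bcl11a was lower. Batf3 stood at 114 CPM in mature cells and 66.3 CPM in resting cells of the cDC1 sort, and at 140 CPM in mature cells and 45.2 CPM in resting cells of the cDC2 sort. The ratio was 1.72 (1.46 to 2.03) in the cDC1 sort and 3.1 (2.59 to 3.70) in the cDC2 sort, so that mature cells of the 2 sorts lay within counting error of each other for Batf3. Spib had 17 UMIs (12.1 CPM) in mature cells and 7 UMIs (0.253 CPM) in resting cells of the cDC1 sort, and 32 UMIs (31.6 CPM) in mature cells and 227 UMIs (9.05 CPM) in resting cells of the cDC2 sort. It was 47.8-fold higher (18.8 to 136) in mature cells of the cDC1 sort and 3.49-fold higher (2.33 to 5.07) in those of the cDC2 sort.

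Bcl11a stood at 7.81 CPM (11 UMIs) in mature cells and 16.6 CPM in resting cells of the cDC1 sort, and at 24.7 CPM (25 UMIs) in mature cells and 41.6 CPM in resting cells of the cDC2 sort. It was 2.13-fold lower (1.18 to 4.30) in mature cells of the cDC1 sort and 1.69-fold lower (1.14 to 2.62) in those of the cDC2 sort. Zbtb46, by contrast, was higher in mature cells, at 61.0 CPM in mature cells and 44.9 CPM in resting cells of the cDC1 sort and at 94.8 CPM in mature cells and 67.8 CPM in resting cells of the cDC2 sort, 1.36-fold and 1.40-fold. Id2 was 1.15-fold higher in mature cells of the cDC1 sort, at 1492 CPM in mature cells against 1301 CPM in resting cells, and 1.36-fold higher in those of the cDC2 sort, at 1044 CPM in mature cells against 768 CPM in resting cells. Nfil3 stood at 66.0 CPM in mature cells and 39.4 CPM in resting cells of the cDC1 sort, a ratio of 1.68 (1.34 to 2.07), and at 56.3 CPM in mature cells and 61.0 CPM in resting cells of the cDC2 sort, where the interval included 1. The intervals for Bcl6 included 1 in both libraries, and those for Cebpb and Zeb2 did in the cDC2 sort.

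Of 9 members measured in the cDC1 sort, Zeb2 and Spib were at least 2-fold higher in mature cells, where 14.2% of 6524 measured genes were, and Bcl11a was at least 2-fold lower, where 12.9% were. Of 10 members measured in the cDC2 sort, Batf3 and Spib were at least 2-fold higher in mature cells, where 12% of 6552 measured genes were, and none was 2-fold lower, where 7.02% were. Against these shares, counts of 1 or 2 members do not set the list apart from other genes. In a direct comparison of mature cells, cDC1 sort over cDC2 sort, Bcl6 was 2.06-fold higher (1.33 to 3.26) in the cDC1 sort, at 58.9 CPM in the cDC1 sort and 28.6 CPM in the cDC2 sort. The 5 members higher in the whole cDC2 sort were at least 2-fold higher in its mature cells too, where 9.97% of 6547 measured genes were, against 5.28% in the other direction.

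The Zeb2 value of mature cells in the cDC1 sort rested on cells without clear lineage markers. Zeb2 stood at 29.8 CPM (42 UMIs) in the 101 mature cells and 1.73 CPM in resting cells, a ratio of 17.2 (11.1 to 26.6). In the 41 mature cells that kept their cDC1 markers it stood at 5.61 CPM (4 UMIs) and Spib at 2.80 CPM (2 UMIs), while in the 59 with no lineage call Zeb2 stood at 54.2 CPM and Spib at 22.0 CPM. None of 7 measured members was at least 2-fold higher in the 41 cells than in resting cells, where 13.1% of measured genes were, and the interval of the Zeb2 ratio then included 1. Zeb2 and Spib were under 10 CPM in the 41 cells and in resting cells. They were therefore not among the 7 and could not be called, though both point values stayed above those of resting cells. Bcl11a alone was 2-fold lower in them, where 12% of measured genes were. In the 59 unmarked cells Batf3, Nfil3, Zeb2 and Spib were 2-fold higher, where 17.7% of measured genes were. The 3 heat shock genes summed to 1606 CPM in the unmarked cells and 1005 CPM in resting cells, and their part was not tested. The 6 nonclassical monocyte markers summed to 349 CPM in all mature cells, 373 CPM in the unmarked ones and 96.9 CPM in resting cells, with Ace and Cd300e at 0 in both mature groups, and their part in these values was not tested. The 12 cDC2 markers summed to 156 CPM in all mature cells and 84.6 CPM in resting cells of the cDC1 sort, with 6 of the 12 at 0 in the mature cells (Cd209d, Clec10a, Il1rl1, Mrc1, Clec4a3 and Csf1r). Sirpa, another of the 12, went the other way. It stood at 22.0 CPM (31 UMIs) in mature cells and 0.541 CPM (15 UMIs) in resting cells, 40.6-fold higher (21.3 to 81.0). The 12 cDC1 markers summed to 744 CPM in mature cells and 3575 CPM in resting cells. Among genes of cells known to express Spib, the B cell markers Cd79a, Cd79b and Ebf1 were at 0 in these mature cells, and 6 B cell markers summed to 26.3 CPM in mature cells and 57.8 CPM in resting cells. Whether some of the unmarked mature cells entered the XCR1 sort from the cDC2 lineage was not tested.

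The same split moved Batf3 and Cebpb in the cDC2 sort. Batf3 stood at 76.6 CPM in 23 mature cells with cDC2 markers and 197 CPM in 53 mature cells with no lineage call, against 45.2 CPM in resting cells. Cebpb stood at 195 CPM in the mature cells with cDC2 markers and 17.7 CPM in those with no lineage call, against 91.4 CPM in resting cells. Batf3 was therefore 1.70-fold higher (1.19 to 2.35) in the marked mature cells than in resting cells, under the 2-fold limit, and Cebpb 2.13-fold higher (1.71 to 2.62). Spib stood above resting cells in both parts, at 37.3 CPM in marked cells and 27.5 CPM in unmarked cells, against 9.05 CPM. Of 10 measured members, Cebpb and Spib were 2-fold higher in the marked cells and none lower, where 11% and 3.66% of measured genes were. In the unmarked cells Batf3 and Spib were 2-fold higher and Cebpb and Bcl11a lower, where 17.8% and 16.2% of measured genes were. The 6 B cell markers summed to 24.7 CPM in all mature cells and 44.2 CPM in resting cells of the cDC2 sort, and the 6 nonclassical monocyte markers to 242 CPM in mature cells and 31.2 CPM in resting cells, whose part in these values was not tested. The 3 heat shock genes summed to 569 CPM in all mature cells, 828 CPM in the unmarked ones and 274 CPM in resting cells. Their part was not tested either.

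Cycling cells differed from resting cells by little for most members. Since the median log2 ratio of all measured genes, cycling over resting, was 0.25 in the cDC1 sort and 0.21 in the cDC2 sort, ratios near those values match the bulk of genes. Bcl11a stood at 24.3 CPM in cycling cells and 16.6 CPM in resting cells of the cDC1 sort, and at 64.4 CPM in cycling cells and 41.6 CPM in resting cells of the cDC2 sort. Tcf4 stood at 89.5 CPM in cycling cells and 71.1 CPM in resting cells of the cDC1 sort, and at 244 CPM in cycling cells and 173 CPM in resting cells of the cDC2 sort. The log2 ratios were 0.55 and 0.63 for Bcl11a and 0.33 and 0.50 for Tcf4, cDC1 sort before cDC2 sort, so Tcf4 in the cDC1 sort lay close to the shift of all genes. Id2 was lower in cycling cells, at 1104 CPM in cycling cells and 1301 CPM in resting cells of the cDC1 sort and 656 CPM in cycling cells and 768 CPM in resting cells of the cDC2 sort.

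Zeb2 was the one member at least 2-fold apart in cycling cells, and only in the cDC1 sort. It stood at 15.4 CPM in cycling cells and 1.73 CPM in resting cells there, 8.87-fold higher (6.09 to 13.04), and 11 of the 229 cycling cells carried cDC2 markers and a Zeb2 level of 202 CPM. In the 216 cycling cells with cDC1 markers it stood at 2.65 CPM (12 UMIs), 1.53-fold above resting cells with an interval of 0.741 to 2.93. No member was called in these cells or in the 264 cycling cells with cDC2 markers, where 9.9% and 7.86% of measured genes were 2-fold higher and 0.382% and 0.596% lower, cDC1 sort before cDC2 sort. Across the 8 members measured in the cDC1 sort, 1 was at least 2-fold higher in cycling cells and none lower, against 9.79% and 0.279% of 6802 measured genes. None of the 10 members measured in the cDC2 sort was 2-fold higher or lower in cycling cells, against 7.89% and 0.627% of 6701 measured genes. Set side by side, cycling cells of the 2 sorts kept the split of the whole sorts in count, with 5 of 10 members 2-fold higher in the cDC2 sort and none in the cDC1 sort, against 6.85% and 6% of 7169 measured genes.

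**Figure D3:**
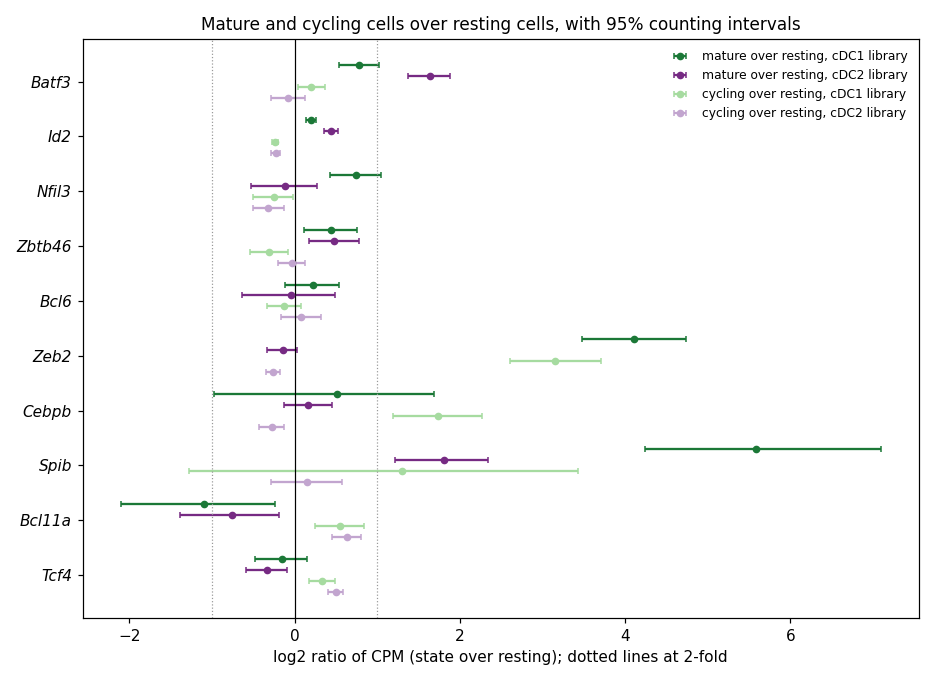
Log2 ratio of CPM of mature over resting cells (dark) and of cycling over resting cells (light) in the cDC1 library (green) and the cDC2 library (purple), with 95% counting intervals as bars and dotted lines at 2-fold. Spib lies right of 2-fold in mature cells of both libraries and Bcl11a lies left of 0 in mature cells and right of 0 in cycling cells; the Zeb2 ratios of the cDC1 library rest on cells without cDC1 markers.

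The cDC2 sort held further cell states in which single members stood out. In the 102 cells marked by Cd7 and Plac8, Id2 stood at 173 CPM, against 768 CPM in resting cDC2-like cells, 4.43-fold lower (3.87 to 5.09), with a UMI in 31.4% of these cells and 81.8% of resting cells after thinning to 5000 UMIs. Spib stood at 25.9 CPM (32 UMIs) in the Cd7 Plac8 cells and 9.05 CPM in resting cells, 2.87-fold higher (1.91 to 4.16), and Zeb2 at 410 CPM in the Cd7 Plac8 cells and 283 CPM in resting cells, 1.45-fold higher. Bcl11a stood at 60.8 CPM in the Cd7 Plac8 cells and 41.6 CPM in resting cells, while the intervals for Batf3, Zbtb46, Bcl6 and Tcf4 included 1. Low Id2 thus went with a Batf3 level of 45.4 CPM, near the 45.2 CPM of resting cells. Among the 10 members, 1 was at least 2-fold higher and 1 at least 2-fold lower in these cells, against 8.39% and 5.22% of 6590 measured genes. The median log2 ratio of all measured genes in this comparison was 0.24, so the Zeb2, Bcl11a and Cebpb ratios are smaller relative to other genes. The 8 plasmacytoid DC markers summed to 25.9 CPM in the Cd7 Plac8 cells and 11.2 CPM in resting cells, with Klk1, Pacsin1, Cox6a2 and Ly6d at 0, and the 6 B cell markers to 81.1 CPM in the Cd7 Plac8 cells and 44.2 CPM in resting cells, with Ms4a1 and Ebf1 at 0. Their part in the Spib level was not tested. The 3 heat shock genes summed to 747 CPM in the Cd7 Plac8 cells and 274 CPM in resting cells, and their part in the levels of the members was not tested.

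Macrophage-like cells had more Cebpb, Zeb2, Batf3 and Nfil3 and less Zbtb46 than resting cDC2-like cells. The 14 macrophage markers, which chose them, summed to 11667 CPM in these cells and 385 CPM in resting cDC2-like cells. The 12 cDC2 markers summed to 3732 CPM in the macrophage-like cells, near the 4014 CPM of resting cDC2-like cells. Whether some cells of this gate were cDC2 was not tested. Cebpb stood at 1096 CPM in 142 macrophage-like cells and 91.4 CPM in resting cDC2-like cells, 12.0-fold higher (11.3 to 12.7), and Zeb2 at 767 CPM in macrophage-like cells and 283 CPM in resting cells, 2.71-fold higher (2.58 to 2.86). Batf3 stood at 112 CPM in macrophage-like cells and 45.2 CPM in resting cells, 2.47-fold higher (2.16 to 2.82), and Nfil3 at 122 CPM in macrophage-like cells and 61.0 CPM in resting cells, 2.01-fold higher (1.77 to 2.27). Batf3 and Nfil3, known for their role in cDC1, therefore stood above their levels in resting cDC1-like cells, which were 66.3 CPM for Batf3 and 39.4 CPM for Nfil3. The 3 heat shock genes summed to 1315 CPM in macrophage-like cells, 274 CPM in resting cDC2-like cells and 1005 CPM in resting cDC1-like cells. The part of heat shock in these values was not tested. Zbtb46, which is used to separate cDCs from macrophages in mice, stood at 28.4 CPM in macrophage-like cells and 67.8 CPM in resting cells, 2.39-fold lower (1.88 to 3.07). Of 9 measured members, 4 were at least 2-fold higher and 1 lower, against 11.5% and 2.24% of 6774 measured genes. The median log2 ratio of all measured genes was 0.29 here, so that relative to other genes the Nfil3 difference was under 2-fold.

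The 36 nonclassical monocyte-like cells had Cebpb at 2439 CPM against 91.4 CPM in resting cDC2-like cells and Zeb2 at 894 CPM against 283 CPM. Bcl6 stood at 67.5 CPM (26 UMIs) in the monocyte-like cells and 29.5 CPM in resting cells, 2.29-fold higher (1.48 to 3.38). Batf3 at 20.8 CPM (8 UMIs), Id2 at 338 CPM and Zbtb46 at 28.6 CPM (11 UMIs) were 2.17-fold, 2.28-fold and 2.37-fold lower than in resting cells. Batf3 was thus high in the macrophage-like and low in the monocyte-like cells of the same library. Of 9 measured members, 3 were at least 2-fold higher and 3 lower, against 26.9% and 8.45% of 7169 measured genes, whose median log2 ratio was 0.44. The 6 neutrophil markers summed to 610 CPM in the monocyte-like cells and 11.7 CPM in resting cells, with Lcn2 at 0 in the monocyte-like cells, and their part in the Cebpb level was not tested. The 8 Cd7 Plac8 markers summed to 4580 CPM in the monocyte-like cells, 5255 CPM in the Cd7 Plac8 cells and 1597 CPM in resting cells. The 12 cDC2 markers summed to 3224 CPM in the monocyte-like cells and 4014 CPM in resting cells, and the 3 heat shock genes to 725 CPM and 274 CPM. The part of these genes was not tested. In the smaller gates, Cebpb stood at 4413 CPM in 29 neutrophil-like cells and Spib at 201 CPM in 38 B cell-like cells, and the 1 cell in the plasmacytoid DC gate had Tcf4 at 2246 CPM and Spib at 1947 CPM.

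**Figure D4:**
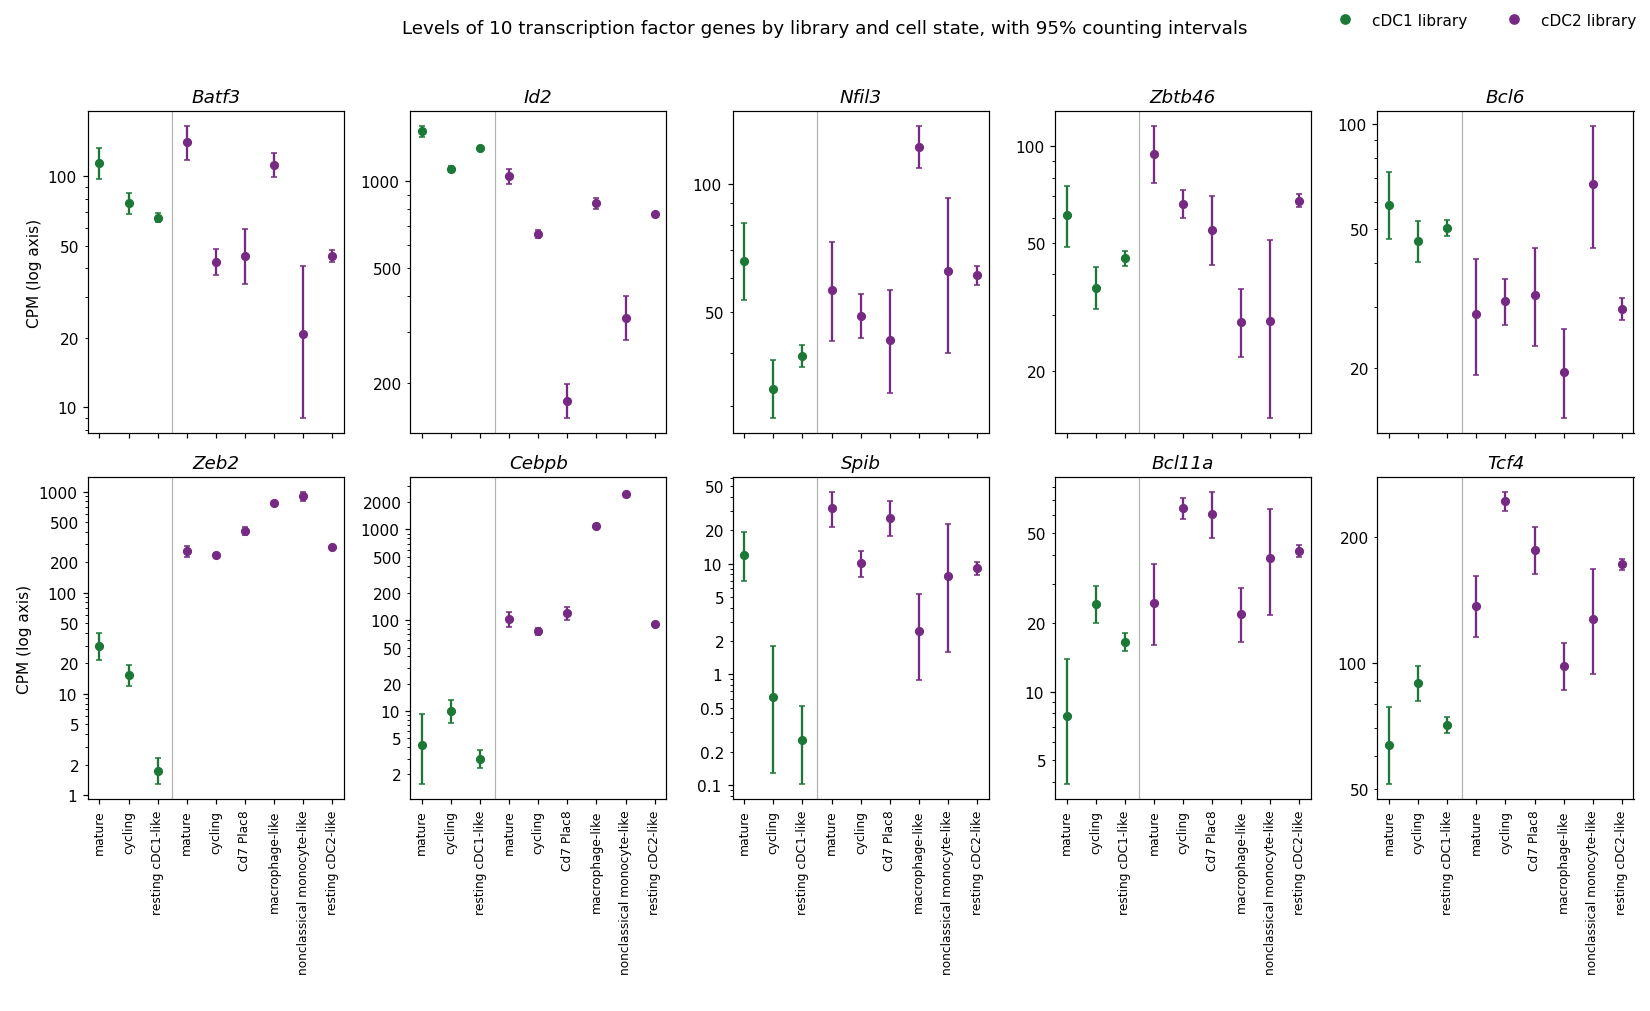
CPM of each gene on a log axis by library and cell state, with 95% counting intervals as bars; green points are the cDC1 library and purple points the cDC2 library. Zeb2 and Cebpb reach their highest plotted levels in macrophage-like and nonclassical monocyte-like cells, among the plotted groups Id2 is lowest in the Cd7 Plac8 cells at 173 CPM and Batf3 highest in mature cells of the cDC2 library at 140 CPM.

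Within resting cells the members varied by smaller amounts. In the cDC1 sort, 224 cells with at least 3 UMIs of Il12b, the gene of a cytokine subunit that drives type 1 T cell responses, had Zbtb46 at 64.6 CPM against 42.4 CPM in the other resting cells, 1.53-fold higher (1.31 to 1.77). The same cells had Tcf4 at 51.9 CPM against 73.5 CPM and Nfil3 at 29.0 CPM against 40.7 CPM in the other resting cells, 1.42-fold and 1.41-fold lower. No member was 2-fold apart in this subset, where 2.08% of 6099 measured genes were higher and 1.26% lower. In 686 cells positive for both Plet1 and Cd207, a lectin gene of cDC1 in mouse lung, Batf3 stood at 52.3 CPM against 73.6 CPM in the other resting cells, 1.41-fold lower (1.27 to 1.56), and Bcl11a at 11.9 CPM against 19.1 CPM, 1.60-fold lower (1.29 to 2.00). There too no member was 2-fold apart, where 0.231% of 6050 measured genes were higher and 0.264% lower.

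Cells with at least 5 UMIs of Ccr7, the gene of the lymph node homing receptor, but none of the maturation gene Fscn1 were found in both libraries. In the 71 such cells of the cDC1 sort, Id2 stood at 1776 CPM against 1282 CPM in the other resting cells, and in the 767 such cells of the cDC2 sort at 920 CPM against 656 CPM. The ratio was 1.38 (1.32 to 1.45) in the cDC1 sort and 1.40 (1.36 to 1.44) in the cDC2 sort. Zbtb46 stood at 79.9 CPM in these cells of the cDC2 sort against 58.9 CPM in the other resting cells, 1.36-fold higher, and Cebpb at 66.5 CPM against 110 CPM, 1.65-fold lower (1.51 to 1.81). Bcl11a was 2.54-fold lower (1.22 to 6.37) in these cells of the cDC1 sort, at 6.69 CPM (7 UMIs) against 17.0 CPM, and 1.24-fold lower in those of the cDC2 sort. Bcl11a was the 1 member called, among 7 measured in the cDC1 sort, where 7.29% of 6230 measured genes were 2-fold lower and 4.74% higher. None of 10 was called in the cDC2 sort, where 2% of 6142 measured genes were lower and 0.602% higher. Id2 and Zbtb46 were thus higher and Bcl11a lower in these cells, the same directions as in mature cells, with the Zbtb46 interval including 1 in the cDC1 sort. Cebpb did not share this likeness in the cDC2 sort. Its interval included 1 in mature cells, and it was at least 2-fold higher in those with cDC2 markers. Ccr7, which chose these cells, is also a marker of the mature gate.

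Nfil3 was at least 2-fold lower, in both sorts, in cells rich in heat shock transcripts, which cell isolation as well as stress in tissue can induce. In resting cells with at least 20 UMIs of Hspa1a, Hspa1b and Dnajb1, Nfil3 stood at 20.5 CPM against 42.7 CPM in the other cells of the cDC1 sort, and at 29.9 CPM (17 UMIs) against 61.7 CPM in the cDC2 sort. It was 2.09-fold lower (1.67 to 2.64) in the 316 such cells of the cDC1 sort and 2.06-fold lower (1.28 to 3.55) in the 42 such cells of the cDC2 sort. Batf3 was higher in both, at 92.2 CPM against 61.7 CPM in the cDC1 sort and 80.9 CPM against 44.4 CPM in the cDC2 sort. Bcl11a was higher as well, 1.49-fold in the cDC1 sort, at 23.1 CPM against 15.5 CPM, and 2.91-fold (2.23 to 3.73) in the cDC2 sort, at 116 CPM against 39.9 CPM. In the cDC1 sort Nfil3 was the 1 member 2-fold lower, where 1.54% of 6484 measured genes were lower and 3.93% higher. In the cDC2 sort Bcl11a was 2-fold higher, where 16.4% of 7027 measured genes were, and Nfil3 2-fold lower, where 5.02% were. What part handling of the tissue has in these values was not tested.

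In the cDC2 sort, 654 resting cells marked by Mrc1 and Il1rl1, the genes of the mannose receptor and the interleukin-33 receptor, had Cebpb at 125 CPM against 70.3 CPM in the other resting cells, 1.78-fold higher (1.64 to 1.93). Spib stood at 6.41 CPM in these cells against 10.7 CPM in the others, 1.67-fold lower (1.24 to 2.28). No member was 2-fold apart there, where 0.344% of 6097 measured genes were higher and 0.148% lower. Cell by cell, the members barely moved together: over the 45 pairs, the correlation of log-scaled levels ran from -0.06 to 0.06 in resting cDC1-like cells and from -0.08 to 0.14 in resting cDC2-like cells, with Zeb2 and Cebpb the highest pair in cDC2-like cells. In counts this sparse such values describe little beyond noise.

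**Figure D5:**
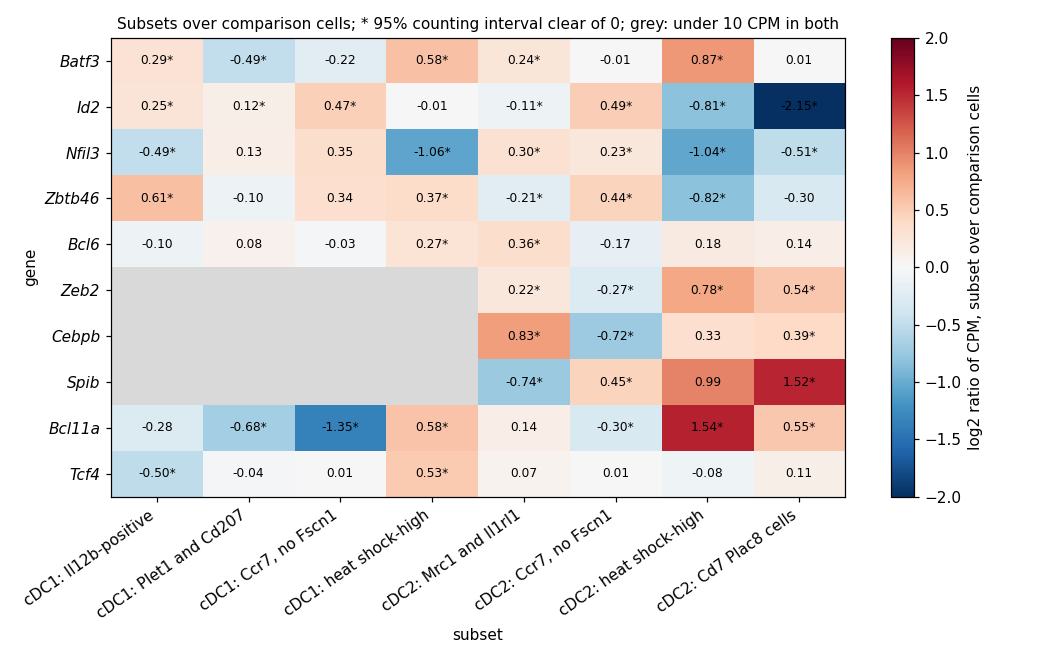
Log2 ratio of CPM for each gene in subsets of resting cells over the other resting cells of the same library, and in Cd7 Plac8 cells over resting cDC2-like cells; asterisks mark 95% counting intervals clear of 0 and grey cells are genes under 10 CPM in both groups. Nfil3 is lower in heat shock-high cells of both libraries (-1.06 and -1.04), and Id2 is lowest in the Cd7 Plac8 cells (-2.15).

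For each member the genes of most similar pattern were sought over 9 library-by-state groups of at least 50 cells, among 5828 genes, by Pearson's r of log2(CPM + 10). The groups share their libraries, and r is given as a description. The cDC1 program genes were closest to Il15 (r = 0.95) and Git2 (0.95) for Batf3, Bcl2a1a (0.96) for Id2, and Il1rn (0.97) and Romo1 (0.97) for Nfil3. Zbtb46 was closest to Hax1 (0.90) and Casc3 (0.89), and Bcl6 to Htr7 (0.95) and Rnf157 (0.95). Zeb2 was closest to Ctsa (0.99) and Syk (0.98), Cebpb to Pilrb1 (0.97) and Adora2b (0.97), and Spib to Ppdpf (0.98) and Madd (0.95). Bcl11a was closest to Uck2 (0.97) and Cux1 (0.97), both highest in cycling cells of the cDC2 sort, and Tcf4 to Ctnnd2 (0.98) and Cd69 (0.97).

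Related genes that are no members were counted from lists. Between the whole libraries, 5.51% of 6610 measured genes were 2-fold higher in the cDC1 sort and 7.79% in the cDC2 sort. Of 24 measured lineage factors of DCs outside the 10, Irf8, Hes1 and Mycl had at least 2-fold higher levels in the cDC1 sort and, among others, Irf4, Prdm1, Stat3 and Stat5a in the cDC2 sort, with a median log2 ratio of -0.45 against -0.05 over all measured genes. Irf8, the cDC1 factor gene that BATF3 keeps active, stood at 1117 CPM in resting cDC1-like cells and 6.54 CPM in resting cDC2-like cells, and Irf4, its cDC2 counterpart, at 7.90 CPM in resting cDC1-like cells and 164 CPM in resting cDC2-like cells. The Irf8 difference thus far exceeded that of Batf3 (1.47-fold) between the same cells. Of 9 measured BATF and AP-1 partners, none was higher in the cDC1 sort, and Batf and Fosl2 were higher in the cDC2 sort. Batf, the paralog that can stand in for BATF3 in mice, stood at 6.36 CPM in the cDC1 sort and 61.3 CPM in the cDC2 sort, 9.64-fold higher in the cDC2 sort (8.40 to 11.1).

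Of 8 listed genes of helix-loop-helix proteins, Id1 was 2.99-fold higher in the cDC1 sort, at 11.8 CPM in the cDC1 sort and 3.96 CPM in the cDC2 sort. Lyl1 was 2.48-fold higher in the cDC2 sort, at 6.84 CPM in the cDC1 sort and 17.0 CPM in the cDC2 sort. None of the 4 other measured genes with a Cebp symbol was 2-fold apart. Of 7 measured zinc finger relatives and corepressors, Bcor was, at 22.5 CPM in the cDC1 sort and 48.9 CPM in the cDC2 sort, 2.18-fold higher in the cDC2 sort. Beside the 5.51% and 7.79% of all measured genes, the single genes Id1, Lyl1 and Bcor do not set their lists apart. Of 9 measured genes used as outputs of these factors, Xcr1, Clec9a, Tlr3, Itgae, Cadm1 and Siglech were higher in the cDC1 sort and Csf1r and Prdm1 in the cDC2 sort. All of the 6 except Siglech were also markers of the cDC1 gate, and Csf1r was a marker of the cDC2 gate. Xcr1 encodes the receptor used for the cDC1 sort, so its difference is tied to how the cells were chosen. In mature cells of the cDC1 sort, Irf4 stood at 31.2 CPM in mature cells and 7.90 CPM in resting cells, and in those of the cDC2 sort Irf8 at 163 CPM in mature cells and 6.54 CPM in resting cells. Of the lineage factor list, 8 of 23 measured genes were 2-fold higher and 6 lower in mature cells of the cDC1 sort, against 3 and 1 of 21 in those of the cDC2 sort. Over all measured genes 14.2% were higher and 12.9% lower in mature cells of the cDC1 sort and 12% and 7.02% in those of the cDC2 sort, so the cDC2 counts lie near the share of all genes.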

How the data were processed

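The data are 2 single-cell RNA-seq libraries from droplets, 1 per sort. The values the authors deposited are raw counts of UMIs for each gene in each barcode, made with Cell Ranger 3.2 on mm10 per the submitters' processing notes, while the matrix header gives software version 3.0.2, per the file headers; Seurat is named without a role. Cells were kept at 500 genes, 1000 UMIs and at most 10% mitochondrial UMIs, which removed 365 of 2939 barcodes (cDC1 sort) and 210 of 3045 (cDC2 sort). No doublet caller was run; 7 and 11 cells over 3 times the median UMIs were left out in an alternative. The 10 members and all gene lists were chosen with earlier results of these data known, and the thresholds of the gates were set after marker counts were seen.

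A cell passed a gate with UMIs of at least 8 of 12 mature markers, 5 of 12 cycling markers, 5 of 14 macrophage markers, 6 of 8 Cd7 Plac8 markers, 3 of 4 Mrc1 Il1rl1 markers, or 4 lineage markers with a lead of 3 over the other lineage. Every feature entered each comparison. A few genes that the lists or the naming rule would name are not reported here. Counts were summed per group into CPM with exact Poisson intervals, ratios have exact conditional binomial intervals and shares Clopper-Pearson ones, all at 95% and covering counting error only. With 1 library per sort no test was made. Genes named outside the members are those at least 2-fold apart between the sorts at 10 CPM or more, the 2 most alike each member (gate markers and predicted, mitochondrial, ribosomal, histone and receptor segment genes left out), the gate markers, and Irf8, Irf4 and Batf in further states. The calculations were tested on simulated data. Alternatives changed the cell filter, the scaling, the CPM limit, the gates (1 marker more, thinned cells, Leiden clusters) and the averaging. Python 3.11.15 with numpy 2.4.6, scipy 1.17.1, pandas 2.3.3, scanpy 1.11.5 and matplotlib 3.10.9 was used.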

Additional observations from a re-analysis of the deposited data

Results flagged for a closer look

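Zeb2 in cycling cells differed in direction between the sorts. The log2 ratio of its CPM, cycling over resting cells, was 3.15 in the cDC1 sort and -0.26 in the cDC2 sort. With 1 library per sort the difference was not tested. In cycling cells that kept the lineage markers of their sort, the log2 ratio was 0.62 in the cDC1 sort, on 12 UMIs, and -0.27 in the cDC2 sort.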

How the results depend on the processing

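Of 360 recomputed log2 ratios, 304 stayed within their counting interval, 56 moved beyond it, and 0 of those called changed sign. At a limit of 50 CPM, 3 members (Zeb2, Cebpb and Tcf4) in place of 5 were 2-fold higher in the cDC2 sort. In mature cells of the cDC1 sort, 0 members in place of 1 were 2-fold lower with 1 marker more per gate or with gates on thinned cells, and 0 in place of 2 were higher when the cells had to carry cDC1 markers, an alternative chosen after seeing the data. In mature cells of the cDC2 sort, 1 member (Bcl11a) in place of 0 was 2-fold lower with gates on thinned cells or the mean of per-cell CPM. In cycling cells of the cDC1 sort, 2 members (Zeb2 and Cebpb) in place of 1 were 2-fold higher with 1 marker more, thinned gates or Leiden clusters, and 0 with cDC1 markers required, also chosen after seeing the data. Where cDC1 markers were required, Zeb2 in mature and cycling cells and Spib in mature cells stood under 10 CPM and could not be called. Apart from this and the limit of 50 CPM, which both leave fewer members measured, the cause was not tested. The Cebpb log2 ratio of mature over resting cells in the cDC2 sort, 0.17, was -0.61 with 1 marker more and 1.09 in mature cells with cDC2 markers.

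Depth limits several values: in the cDC1 sort, mature cells held 6 Cebpb, 11 Bcl11a and 17 Spib UMIs, and cycling cells 3 Spib UMIs. No paired analysis was possible because each sort has 1 library and no result comes from a test. Intervals take UMIs as independent, so the spread between animals is not in them.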

Other observations

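Resting cells without clear lineage markers had their own levels of the factors. In the cDC1 sort, 29 such cells had Cebpb at 289 CPM and Zeb2 at 149 CPM, against 2.99 CPM and 1.73 CPM in resting cDC1-like cells. In the cDC2 sort, 152 such cells had Spib at 16.7 CPM and Bcl11a at 58.8 CPM, against 9.05 CPM and 41.6 CPM in resting cDC2-like cells, with Zeb2 at 237 CPM against 283 CPM.

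The 8 macrophage-like cells of the cDC1 sort had Cebpb at 1108 CPM and Zeb2 at 820 CPM, beside 1096 CPM and 767 CPM in the 142 macrophage-like cells of the cDC2 sort. Besides Spib, the 38 B cell-like cells of the cDC2 sort had Tcf4 at 293 CPM and Bcl11a at 153 CPM, with Zbtb46 at 6.10 CPM. The 29 neutrophil-like cells had Zeb2 at 404 CPM and Id2 at 166 CPM.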
